A study of Mus musculus with 6 samples.

Results

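The proteasome genes described here were read from expression arrays of mouse regulatory T cells (Treg), the CD4+ cells that restrain immune responses and are defined by the transcription factor Foxp3. Members were taken by name, as genes with 1 annotated symbol starting with Psma, Psmb, Psmc, Psmd, Psme, Psmf or Psmg followed by a digit. This found 48 of the 12394 genes on the array. Of these, 46 encode subunits, activators, inhibitors or assembly factors of the proteasome. The other 2, Psmc3ip and Psme3ip1, encode proteins named for binding to a proteasome component and are given apart. The p300-deleted group had the genotype fl-p300/Foxp3cre and the control group Foxp3cre, both on the C57Bl/6 background, so controls carry the Cre too, although their titles call them WT. The floxed gene encodes p300, a histone acetyltransferase, and the Cre comes from Foxp3, so deletion is limited to cells that have expressed it. CD4+CD25+ cells were separated magnetically, and 3 arrays per group were run. The sources used here give no ages for the mice. They do not say either whether the samples of a group are different animals, and the p-values therefore reflect variation between samples that may be partly technical.

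The 26S proteasome degrades proteins tagged with ubiquitin. Its 20S core is a barrel whose outer rings are made of alpha subunits and whose inner rings of beta subunits hold the cutting sites, and its 19S cap binds the ubiquitin chain, unfolds the substrate with a ring of ATPases and feeds it into the barrel. Interferon gamma induces 3 alternative cutting subunits, Psmb8, Psmb9 and Psmb10, which replace Psmb5, Psmb6 and Psmb7 in newly built cores, and the activator subunits Psme1 and Psme2. This immunoproteasome is the common form in lymphocytes and shapes the peptides shown on MHC class I. Nfe2l1 is the transcription factor that raises subunit genes together through antioxidant response elements when proteasome activity is short.

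The promoters of Psmb8 and Psmb5, of Psmb9 and Psmb6, and of Psme1 are shown from 250 bases before to 50 after the transcription start. They run 5′ to 3′ on the strand of the gene and come from RefSeq on build GRCm38.p6. The remaining pair, Psmb10 and Psmb7, is not printed. Psmb10 held no match to the motifs below, and Psmb7 had no promoter among those used here. Capitals mark matches, on either strand, to 3 motifs: the antioxidant response element core TGACNNNGC, the interferon regulatory factor element GAAANNGAAA and the CCAAT box, CCAAT. Matches of different motifs did not overlap in these 5 promoters.
Psmb8, chr17:34197945-34198244, plus strand: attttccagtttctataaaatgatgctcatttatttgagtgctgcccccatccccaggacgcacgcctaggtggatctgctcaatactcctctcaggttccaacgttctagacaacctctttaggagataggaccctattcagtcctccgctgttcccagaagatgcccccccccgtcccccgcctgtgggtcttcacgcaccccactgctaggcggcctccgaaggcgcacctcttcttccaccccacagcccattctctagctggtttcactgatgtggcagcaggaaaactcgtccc
Psmb5, chr14:54617946-54618245, minus strand: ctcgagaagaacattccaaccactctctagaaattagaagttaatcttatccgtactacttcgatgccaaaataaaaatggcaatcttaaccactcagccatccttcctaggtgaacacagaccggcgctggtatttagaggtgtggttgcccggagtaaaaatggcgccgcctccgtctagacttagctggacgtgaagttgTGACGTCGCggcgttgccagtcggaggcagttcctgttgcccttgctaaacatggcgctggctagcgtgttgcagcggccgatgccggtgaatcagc
Psmb9, chr17:34187281-34187580, minus strand: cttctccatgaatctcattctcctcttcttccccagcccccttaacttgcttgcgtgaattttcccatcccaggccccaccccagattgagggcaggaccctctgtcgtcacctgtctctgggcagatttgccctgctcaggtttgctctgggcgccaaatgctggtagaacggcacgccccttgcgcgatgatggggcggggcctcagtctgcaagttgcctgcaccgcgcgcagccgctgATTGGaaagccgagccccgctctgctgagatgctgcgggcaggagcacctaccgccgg
Psmb6, chr11:70525107-70525406, plus strand: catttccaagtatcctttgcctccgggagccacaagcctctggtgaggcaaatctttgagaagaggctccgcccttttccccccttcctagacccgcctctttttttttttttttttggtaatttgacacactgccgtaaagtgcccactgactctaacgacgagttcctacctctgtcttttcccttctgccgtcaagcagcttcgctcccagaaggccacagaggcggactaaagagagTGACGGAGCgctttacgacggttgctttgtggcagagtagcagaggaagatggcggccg
Psme1, chr14:55578244-55578543, plus strand: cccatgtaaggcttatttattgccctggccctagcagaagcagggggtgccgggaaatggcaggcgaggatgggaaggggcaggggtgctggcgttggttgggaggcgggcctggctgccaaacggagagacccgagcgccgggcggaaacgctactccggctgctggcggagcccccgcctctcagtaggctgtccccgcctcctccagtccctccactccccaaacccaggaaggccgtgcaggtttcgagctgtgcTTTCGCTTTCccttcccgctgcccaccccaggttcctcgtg

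The antioxidant response element core stood in the windows of the constitutive subunits Psmb5, 39 to 47 bases before the start, and Psmb6, 1 to 9 bases before it. Psmb8 held no match to the 3 motifs in this window. Psmb9 held a CCAAT box 4 to 8 bases before the start, and Psme1 an interferon regulatory factor element 10 to 19 bases after it. Of 38 proteasome genes with a RefSeq promoter used here, 6 held the antioxidant response element core, 5 the interferon regulatory factor element and 13 a CCAAT box in at least 1 window. Among the 11 constitutive core genes of these, 2 held the antioxidant response element core. Over 32851 promoter windows of the same length these motifs stood in 12.4%, 3.44% and 37.4%. A match is a stretch of letters and not a bound site.

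The values are log2 expression values per probe set, and each gene was read by its brightest probe set, taken by its average over the 6 arrays. Genes whose mean was among the lowest 30% (below 3.91) were not tested, which left 8676 genes and 45 of the 46 proteasome genes. The one left out was Psma8, a core subunit of the testis. It read 3.02, 2.91 and 3.05 in p300-deleted Treg, against 2.95, 3.01 and 3.25 in controls, on each array less than that array's lower quartile, which was 3.26 to 3.31. Means of the tested members ran from 6.89 for Psmd9 to 11.45 for Psme1. The probe set that reads Psme2 lists 2 genes, Psme2b and Psme2, so Psme2 has no probe set of its own and is not a member by the rule. That probe set read 11.14, 11.20 and 11.14 in p300-deleted Treg, against 11.17, 11.46 and 11.05 in controls.

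The groups differed in the defining marker of Treg. Foxp3 read 2.57, 3.04 and 3.15 in p300-deleted Treg, against 9.63, 9.35 and 9.39 in controls. Its 1 probe set was thus under the lower quartile of each p300-deleted array. Il2ra, Ctla4 and the other 4 Treg markers did not pass the test. Without passing, Cd4 was at 0.68, Ctla4 at 0.30 and Il2ra at 0.25, all 3 higher without overlap. Ikzf2 was at 0.60, Nrp1 at 0.05 and Tnfrsf18 at -0.16, with overlap. The array names no probe set for Ep300, so the deletion could not be checked. Of 6 plasma cell markers tested 4 passed as higher, Tnfrsf17, Derl3, Jchain and Txndc5. The others did not pass, with Sdc1 at 0.81 without overlap and Prdm1 at -0.09. Among 5 mast cell and basophil markers Hdc, at 0.23, did not pass, and 4 passed as higher, Cma1, Fcer1a, Mcpt8 and Cpa3. The call of Cpa3 was the least stable of these and held in 6 of 15 alternative settings. The 6 NK and cytotoxic markers were mixed, with 3 above and 3 below 0. Gzma rose by 0.73 and passed. Ncr1 was at 1.46 without overlap but did not pass (limma adjusted p = 0.0982). Also without passing, Klrd1 was at 0.36, Prf1 at -0.01, Nkg7 at -0.37 and Gzmb at -1.12. At an unadjusted p under 0.05 there were 2 higher and 1 lower in limma. The mean level of the plasma cell list was 8.07 to 8.61 in p300-deleted arrays, against 7.20 to 7.32 in controls. The mast cell and basophil list was at 5.48 to 6.19 in p300-deleted arrays, against 4.43 to 4.77 in controls, and the NK and cytotoxic list at 7.57 to 8.15, against 7.54 to 7.80. Myeloid markers had mean levels of 6.17 to 7.33, against 5.13 to 5.92, with 0 of 8 past the test in limma (5 at an unadjusted p under 0.05), T cell markers of 11.60 to 11.69, against 11.30 to 11.47 (0 of 5, 2 unadjusted), and B cell markers of 5.98 to 6.54, against 6.25 to 6.48 (0 of 4, 0 unadjusted). Of 23 cell cycle genes 7 passed as lower, among them Ccne1, Mcm3, Kif20a and Ttk. In all, 22 of the 23 were below 0, and 18 were lower at an unadjusted p under 0.05 in limma. The list's mean level was 6.80 to 7.22, against 7.44 to 8.26. Itgam, Cd14, Ms4a2 and Pax5 were too dim to test. A measure of RNA integrity, the Gapdh control signal at the 3' end minus that at the 5' end, was 0.06 to 0.14 in p300-deleted arrays, against 0.21 to 0.59 in controls with the highest value on control 2. Control probes for 18S rRNA averaged 7.74, 9.47 and 7.91 in p300-deleted arrays, against 5.68, 6.03 and 8.69 in controls, so control 3 alone lay within the p300-deleted range. The part of these differences in the values below was not tested. Arrays of bulk cells cannot tell fewer cells of a type from less RNA per cell.

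None of the proteasome genes passed the test. In limma with Benjamini-Hochberg adjustment over the 8676 genes, 0 of 45 tested members had an adjusted p under 0.05, where 1.72% of all tested genes did, 0.991% higher and 0.726% lower. The lowest adjusted p among the members was 0.128, for Psmd3. At an unadjusted p under 0.05 there were 7 members, 15.6% of them, beside 18.1% of all tested genes, with 2 higher (8.21% of all genes) and 5 lower (9.90%) in p300-deleted Treg. For 10 members, 22.2%, no p300-deleted array fell within the control range or the reverse, beside 23.7% of all tested genes. Of these 3 were higher (10.5% of all genes) and 7 lower (13.2%). These shares lay near those of genes at large.

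The differences were small. They ran from -0.43 for Psmd1 to 0.40 for Psmd10, and their median was -0.07, beside -0.03 for all tested genes. The median size of a difference, whichever its sign, was 0.11 for the members and 0.14 for all genes. For 37 of the 45 members the 95% interval of the difference lay wholly within a 1.5-fold change in either direction, and this held for 75.8% of all tested genes. The widest reach of any member's interval was 0.78 on the log2 scale, for Psmd1. Among the members 30 had values below 0, 66.7%, beside 55.0% of all genes.

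**Figure D1:**
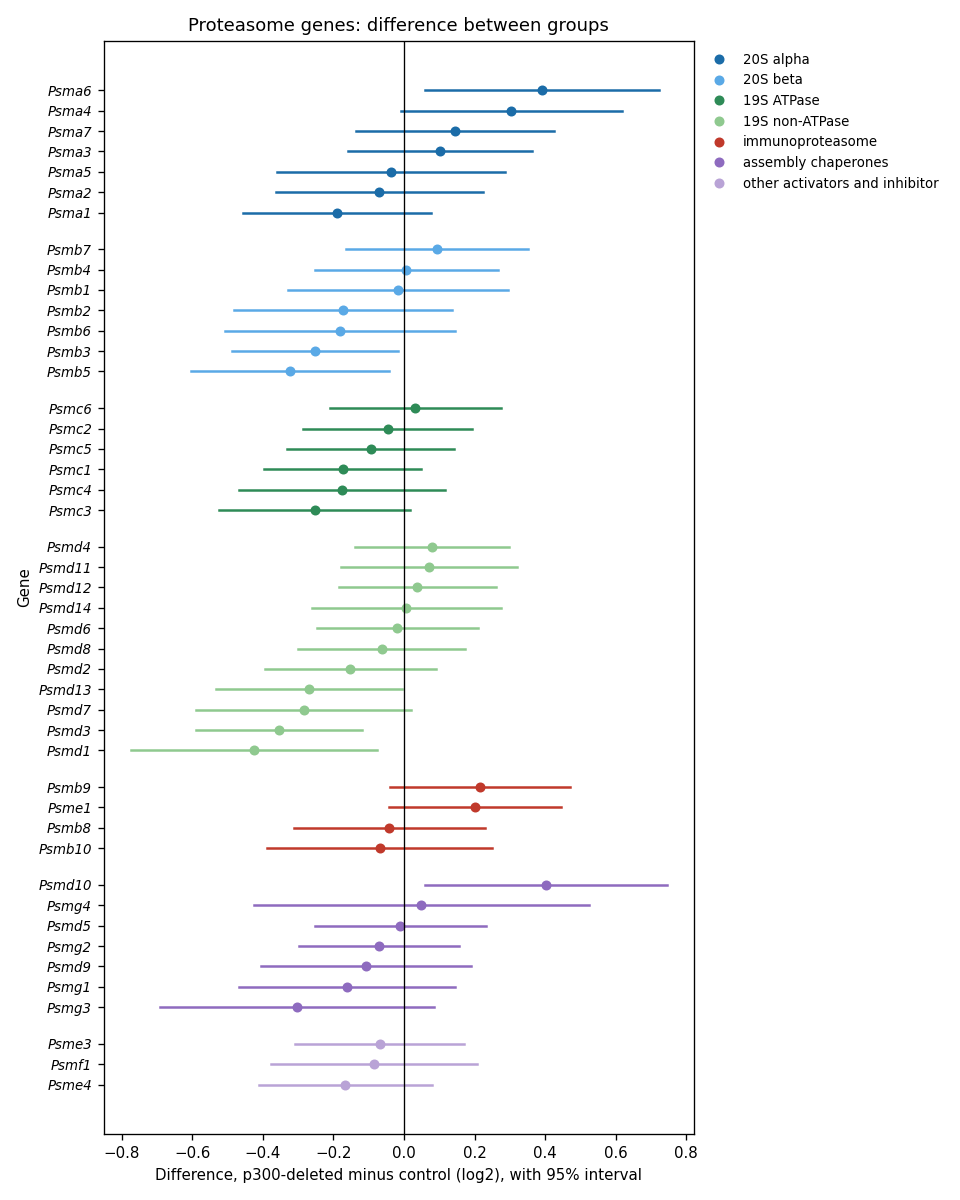
Each point is the difference in log2 expression of a proteasome gene, p300-deleted minus control (3 arrays each), and each line its 95% interval from the limma fit, with genes ordered by size within their role. All 45 points lie between -0.43 and 0.40, and most lines cross 0.

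The inducible subunits were taken first, since interferon sets them apart from the rest. Psmb9, which replaces Psmb6 in the inner ring, read 10.91, 10.81 and 10.81 in p300-deleted Treg, against 10.61, 10.79 and 10.49 in controls. Every p300-deleted array lay above every control, though control 2 came close to the lowest of them. The difference was 0.21 (SE 0.11, 1.16-fold, adjusted p = 0.360). Psme1, a subunit of the activator ring that opens the core, read 11.53, 11.57 and 11.55, against 11.40, 11.45 and 11.20. The groups did not overlap here either, and the difference was 0.20 (SE 0.11, adjusted p = 0.370), or 0.12 without control 3. Control 3 was the lowest of the 6 arrays for both genes.

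Psmb8, which replaces Psmb5 and carries the chymotrypsin-like site of the inducible core, read 11.42, 11.35 and 11.46 in p300-deleted Treg, against 11.49, 11.61 and 11.26 in controls. Psmb10, which replaces Psmb7, read 10.22, 10.25 and 10.34, against 10.33, 10.60 and 10.08. For both genes the control arrays spread out on either side of the p300-deleted ones. The differences were -0.04 (SE 0.12, adjusted p = 0.893) for Psmb8 and -0.07 (SE 0.14, adjusted p = 0.841) for Psmb10. The 4 inducible genes with a probe set of their own had a median of 0.08, with 2 above and 2 below 0. The interval of each stayed within a 1.5-fold change, with bounds of -0.39 for Psmb10 and 0.47 for Psmb9 as the widest. Without control 3 the median of the 4 was -0.01, and without control 2 all 4 were above 0 with a median of 0.16.

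**Figure D2:**
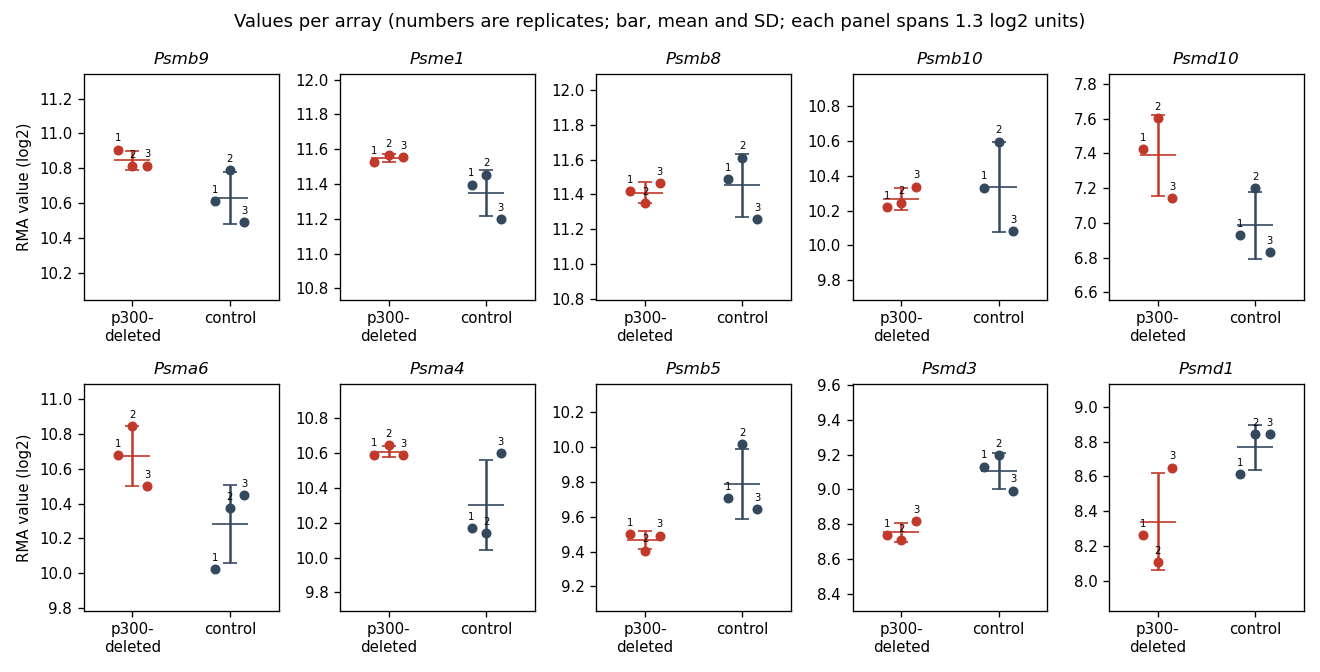
Log2 expression of 10 proteasome genes on each array, with p300-deleted arrays on the left of each panel and controls on the right, bars at the mean with SD (n = 3 each) and the replicate number beside each point. The groups do not overlap for Psmb9, Psme1, Psma6, Psmb5 and Psmd3, and control 2 is the highest array for Psmb8, Psmb10, Psmb5 and Psmd3.

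The genes around these in class I antigen presentation were also without a call. Tap1 and Tap2, the peptide transporter encoded beside Psmb8 and Psmb9, had differences of 0.02 and -0.05. B2m, the light chain of class I molecules, was at 0.02, and the heavy chains H2-K1 and H2-D1 at -0.01 and 0.01. Pdia3, a chaperone of the endoplasmic reticulum that also serves other proteins, was at 0.82 (SE 0.26, adjusted p = 0.158). Calr, another, was at 0.38 (SE 0.15, adjusted p = 0.218). The list had a median of 0.01, and 0 of its 11 tested members passed in limma, with 2 under 0.05 before adjustment. Of 22 interferon response genes 0 passed. At an unadjusted p under 0.05 in limma there were 4, all higher, or 18.2%, beside 8.21% of all tested genes. The highest were Oasl2 at 1.15 (SE 0.27, limma adjusted p = 0.0764) and Ifit3 at 0.87 (SE 0.22, limma adjusted p = 0.0936), both without overlap. Of the 22 genes 20 were above 0 and 2 below, with a median of 0.19. Their mean level was 8.22 to 8.54 in p300-deleted arrays, against 7.96 to 8.27 in controls.

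Each inducible subunit was then set against the constitutive subunit it replaces, on the same array. Different probe sets cannot be compared in level, so only the shift of their log2 difference between groups is of use. Psmb8 minus Psmb5 was 1.92, 1.94 and 1.97 in p300-deleted Treg, against 1.78, 1.59 and 1.61 in controls. Psmb9 minus Psmb6 was 1.12, 0.95 and 1.04, against 0.72, 0.49 and 0.71. For both pairs all p300-deleted arrays lay above all controls. The shifts were 0.28 for Psmb8 against Psmb5 and 0.39 for Psmb9 against Psmb6. By a two-sided exact permutation test each had p = 0.1, the smallest that 3 against 3 arrays can give, and 0.15 adjusted over the 3 pairs.

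Psmb10 minus Psmb7 was 0.10, -0.03 and 0.15 in p300-deleted Treg, against 0.40, 0.39 and -0.08 in controls. Here the groups overlapped, and the shift of -0.16 ran the other way (exact permutation p = 0.4, adjusted 0.4). Leaving out each array in turn, the shift stayed between 0.25 and 0.34 for Psmb8 against Psmb5 and between 0.32 and 0.44 for Psmb9 against Psmb6. For Psmb10 against Psmb7 it was -0.32 without control 3, where the remaining groups no longer overlapped, and -0.08 without control 1. In the first pair the shift came mainly from the lower values of Psmb5, and in the second from both members.

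**Figure D3:**
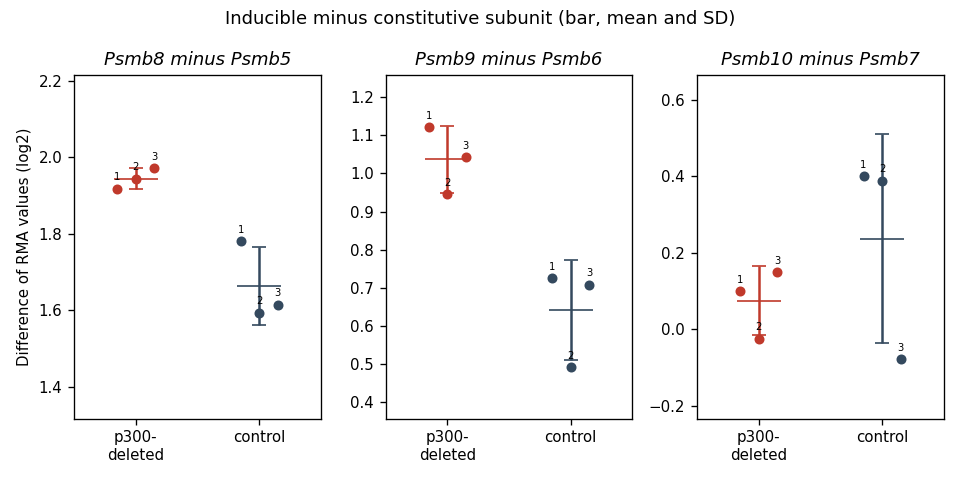
Log2 expression of an inducible subunit minus that of the constitutive subunit it replaces, on each array, with p300-deleted arrays left of controls in each panel and bars at the mean with SD (n = 3 each). The p300-deleted arrays lie above the controls for Psmb8 minus Psmb5 (1.92 to 1.97, against 1.59 to 1.78) and Psmb9 minus Psmb6 (0.95 to 1.12, against 0.49 to 0.72), and overlap them for Psmb10 minus Psmb7.

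Among the 7 constitutive beta subunits 5 had values below 0, with a median of -0.17. Psmb5, the chymotrypsin-like cutting subunit, read 9.50, 9.40 and 9.49 in p300-deleted Treg, against 9.71, 10.02 and 9.64 in controls. Its groups did not overlap, and the difference was -0.32 (SE 0.12, adjusted p = 0.218). Psmb3, a beta subunit with no cutting site, read 10.30, 10.47 and 10.40, against 10.57, 10.73 and 10.62, again without overlap. Its difference was -0.25 (SE 0.10, adjusted p = 0.246), and its second probe set gave -0.24. Psmb6, the caspase-like subunit, was at -0.18 (SE 0.14, adjusted p = 0.564), and Psmb2, another beta subunit without a cutting site, at -0.17 (SE 0.14, adjusted p = 0.558). Their controls overlapped the p300-deleted arrays, with control 2 far above the others at 10.30 for Psmb6 and 10.19 for Psmb2. Psmb7, the trypsin-like subunit, had the highest difference of the 7, 0.09, and Psmb4 was at 0.01. Without control 2 the median of the beta subunits was -0.03, and the difference of Psmb5 was -0.21.

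The alpha subunits, which form the gate of the barrel, had a median of 0.10, with 4 of 7 above 0. The median was 0.05 without p300-deleted 2 or without control 1, 0.15 without p300-deleted 3, 0.18 without control 2 and 0.02 with the 18S signal as a covariate. Psma6 read 10.68, 10.84 and 10.50 in p300-deleted Treg, against 10.03, 10.38 and 10.45 in controls. The groups did not overlap, and the difference was 0.39 (SE 0.15, 1.31-fold, adjusted p = 0.212). Its further probe sets above the dim limit gave 0.24 and 0.25. Psma4 read 10.59, 10.65 and 10.59, against 10.17, 10.14 and 10.60. Control 3 lay within the p300-deleted range, and the difference was 0.30 (SE 0.14, adjusted p = 0.293), or 0.45 without that array. With the 18S covariate Psma6 was at 0.22 and Psma4 at 0.11. The lowest were Psma1 at -0.19 (SE 0.12, adjusted p = 0.445), or -0.11 without control 2, and Psma2 at -0.07. The 14 alpha and beta subunits together had a median of -0.03, the same to 2 decimals as all tested genes, with 6 above and 8 below 0. Whether alpha and beta subunits differed from each other was not tested.

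In the 19S cap 12 of 17 subunits had values below 0, with a median of -0.09, or -0.04 without control 2. The cap median was -0.12 with all probe sets of a gene averaged. With the 18S covariate it was -0.10, beside 0.01 for all tested genes, and 16 of the 17 were below 0. For the 11 non-ATPase subunits the median of -0.06 was -0.12 and -0.11 in these settings, and -0.01 without control 2. Psmd3, a scaffold subunit of the lid, read 8.74, 8.71 and 8.82 in p300-deleted Treg, against 9.13, 9.20 and 8.99 in controls. Every p300-deleted array lay below every control, and its difference was -0.35 (SE 0.10, 0.78-fold, adjusted p = 0.128). Psmd1, a large scaffold of the base, read 8.26, 8.11 and 8.65, against 8.61, 8.84 and 8.84. Here p300-deleted 3 lay within the control range, and the difference of -0.43 (SE 0.15, adjusted p = 0.198) was -0.58 without that array. Psmd13, a lid subunit, read 8.31, 8.28 and 8.26, against 8.51, 8.74 and 8.40, without overlap, at a difference of -0.27 (SE 0.12, adjusted p = 0.270). Psmd7, the inactive partner of the deubiquitinase in the lid, was at -0.28 (SE 0.13, adjusted p = 0.305).

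The other lid and base subunits lay closer to 0. Psmd14, the deubiquitinase that removes the chain before the substrate enters, was at 0.01, and its groups overlapped. Psmd4, a ubiquitin receptor, was at 0.08 (SE 0.10, adjusted p = 0.720) and Psmd11, a scaffold of the lid, at 0.07. Psmd2, the other large scaffold of the base, was at -0.15, and Psmd8, Psmd6 and Psmd12 were at -0.06, -0.02 and 0.04. A further probe set of Psmd6 gave -0.22, and those of Psmd4 and Psmd11 are given below.

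The 6 ATPases, Psmc1 to Psmc6, had a median of -0.13, and 5 were below 0. Without control 2 the median was -0.05. Psmc3 read 9.66, 9.65 and 9.70 in p300-deleted Treg, against 9.90, 10.12 and 9.75 in controls, without overlap, and its difference was -0.25 (SE 0.12, adjusted p = 0.305). It was -0.15 without control 2 and also with the 18S covariate. Psmc4 read 8.51, 8.55 and 8.52, against 8.60, 8.96 and 8.55, so the groups met at 8.55 to 2 decimals. Its difference of -0.18 (SE 0.13, adjusted p = 0.524) was -0.05 without control 2. Psmc1 was at -0.17 with no overlap, and Psmc5, Psmc2 and Psmc6 at -0.09, -0.05 and 0.03. Further probe sets above the dim limit gave -0.23 for Psmc2, -0.35 for Psmc4, and 0.07 and 0.22 for Psmc6. The p300-deleted arrays were close together for these genes, with SDs of 0.01 for Psmc1 and 0.02 for Psmc4, against 0.08 and 0.22 in controls.

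Assembly chaperones help the rings to form and are not part of the finished particle. Psmd10, gankyrin, a chaperone of the ATPase ring, had the highest difference of all members. It read 7.43, 7.60 and 7.14 in p300-deleted Treg, against 6.93, 7.20 and 6.83 in controls. The lowest p300-deleted array lay below the highest control, and the difference was 0.40 (SE 0.15, 1.32-fold, adjusted p = 0.215). Psmg3, a chaperone of the core, read 7.96, 7.91 and 7.80, against 7.93, 8.59 and 8.05. Its difference of -0.30 (SE 0.17, adjusted p = 0.395) was -0.10 without control 2. Psmg4, its partner, was at 0.05, with controls from 7.54 to 8.46 and the widest control SD of any member, 0.46. The remaining chaperones, Psmg1, Psmg2, Psmd5 and Psmd9, were between -0.16 and -0.01. The activators Psme3 and Psme4, which open the core in the nucleus, were at -0.07 and -0.17, and Psmf1, an inhibitor in the test tube, was at -0.08. Together these 10 genes had a median of -0.08, with 2 above 0.

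Control 2 often stood apart from the other arrays. It was the highest of the 6 arrays for 24 of the 45 members, 53.3%, beside 2603 of all 8676 tested genes, or 30%. For the beta subunits this was 6 of 7. The control SD exceeded the p300-deleted SD for 38 members, 84.4%, beside 70.0% of all genes, and the median SD of the members was 0.07 in p300-deleted Treg and 0.15 in controls. Averaged over the members, arrays deviated from each gene's own mean by -0.06, 0.00 and -0.03 in p300-deleted Treg, against -0.04, 0.16 and -0.04 in controls. Without control 2 the median of the members was 0.01 and 24 were above 0. Control 2 did not stand highest for the cell cycle list, which deviated by 0.29, 0.08 and 0.87 on controls 1, 2 and 3.

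**Figure D4:**
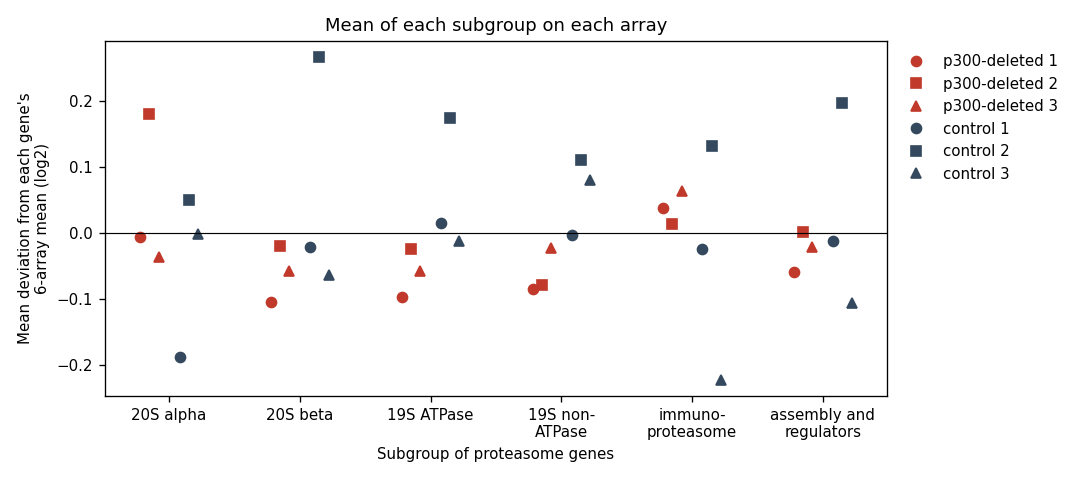
Mean deviation, per array, of each subgroup of proteasome genes from the 6-array mean of each gene (log2), with p300-deleted arrays in red left of controls in dark grey and a symbol for each replicate. Of the 6 subgroups plotted, control 2 is the highest array in all but the alpha subunits, where p300-deleted 2 is highest at 0.18, and control 3 is the lowest for the immunoproteasome at -0.22.

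For 21 members more than 1 probe set was annotated, and for 10 of them a further probe set differed in sign from the brightest. In 7 of the 10 such a probe set was above the dim limit. Psmb1 was at -0.02 by its brightest probe set, with a mean of 11.02. It was at 0.22 and 0.49 by further ones just above the dim limit, with means of 4.17 and 4.57. Psmd4 was at 0.08 by its brightest and at 0.43 by a further one with a mean of 8.34. For that one the p300-deleted arrays read 8.60, 8.60 and 8.48, against 8.17, 7.95 and 8.26 in controls, without overlap. Psmd11 had 6 probe sets with differences from -0.28 to 0.24. Psmd9 was at -0.11 and 0.36, Psmb4 at 0.01 and -0.22, and Psme4 at -0.17, -0.24 and 0.18. The brightest probe sets of Psma5 and Psmf1 were at -0.04 and -0.08, with others at up to 0.06 and 0.10. The sources used here do not say which transcripts each probe set binds.

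**Figure D5:**
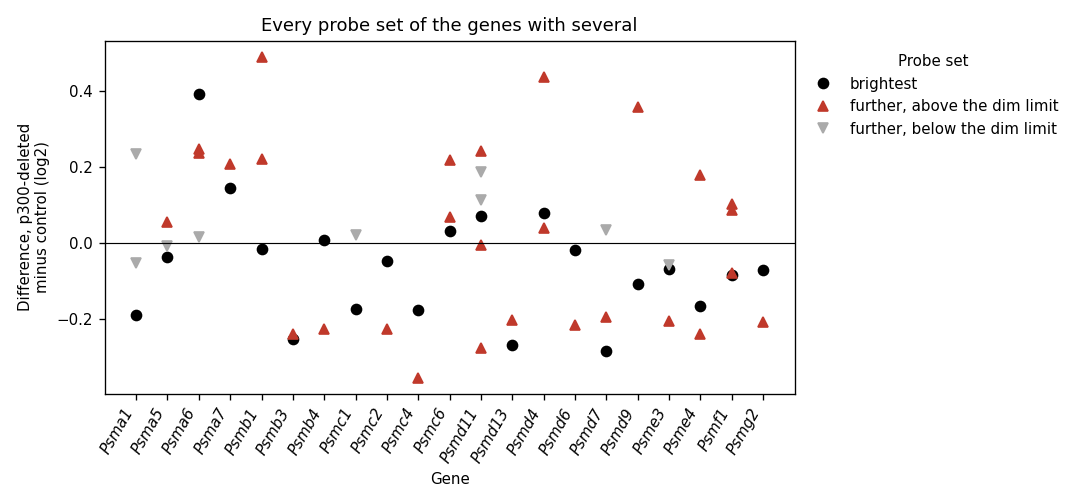
Difference in log2 expression, p300-deleted minus control, for every probe set of the 21 members that have several, with the brightest in black, further ones above the dim limit of 3.91 in red and below it in grey. Points on both sides of 0 for Psmb1, Psmd11, Psmd9 and Psme4 show members whose sign depends on the probe set.

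The partners of the proteasome were taken from a list of ubiquitin receptors, deubiquitinases and genes of the Nfe2l1 pathway. Of 23 tested partners 0 passed in limma, with 1 under 0.05 before adjustment. There were 12 above and 11 below 0 and a median of 0.00. Nfe2l1 was at 0.05 (SE 0.11, adjusted p = 0.870), and Nfe2l2, its relative, at -0.0048. Pomp, the maturation factor of the core, was at -0.17 (SE 0.10, adjusted p = 0.406) with no overlap between groups, and Vcp, the ATPase that extracts substrates for the proteasome, at -0.24 (SE 0.12, adjusted p = 0.345). The deubiquitinases Usp14 and Uchl5 of the cap were at -0.06 and 0.04, and Akirin2, which carries proteasomes into the nucleus, at 0.02. The highest was Txnl1, a thioredoxin bound to the cap, at 0.41 (SE 0.16, adjusted p = 0.227).

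The genes that share only the name did not pass either. Psme3ip1, which encodes a binding partner of Psme3, read 8.77, 8.79 and 8.74 in p300-deleted Treg, against 8.41, 8.40 and 8.50 in controls. The groups were well apart, with a difference of 0.33 (SE 0.10, adjusted p = 0.125). Psmc3ip, a factor of meiotic recombination, read 5.64, 5.84 and 5.83, against 6.02, 6.36 and 6.19, without overlap, and was at -0.42 (SE 0.12, adjusted p = 0.126).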

How the data were processed

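Per the submitters' processing notes, the deposited log2 values were made by the authors with RMA, which corrects background, quantile-normalizes the arrays and summarises the probes of a probe set, so that a shift of all RNA in a cell is removed and differences between dim signals are compressed. No source used here gives the RMA version, and 3 arrays per group limit the precision. Of 22690 probe sets, the platform annotation gave 1 symbol to 20393, several to 691 and none to 1606. By gene ID 20364 matched RefSeq (GRCm38.p6), with 0 symbols updated.

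Groups were compared with limma 3.58.1 in R 4.3.3, two-sided, without covariates. Differences are p300-deleted minus control, with the SE of the fit. The members, lists and tests were chosen with earlier results of these data known. Named were all inducible genes, the 2 highest and 2 lowest of each role, the member with the lowest p, members with probe sets of opposite sign, the untested member and up to 4 called genes of each other list. Other named genes were chosen after their values were seen. Simulated data had 8676 genes, with 200 changed in each of 20 sets and the variance of each gene taken from these arrays. On them the fit called 0.447% of genes changed by 0.25, 18.5% by 0.5 and 74.6% by 1 (log2). Of the 95% intervals, 94.8% held the true value. Alternatives were the filter on dim genes, quantile-normalizing once more, centring arrays on their medians, averaging the probe sets of each gene, array weights, a variance prior with trend and robust fitting, a replicate block, the 18S level as a covariate, an adjusted p under 0.1 and leaving out each array.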

Additional observations from a re-analysis of the deposited data

How the results depend on the processing

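With 3 arrays per group, most changes of the size seen here went uncalled in the simulated data, where 200 genes were changed in each set. Recovery with more changed genes was not tested. Proteasome genes called changed numbered 0 under every alternative tried except array weights. There 4 of 45 passed, beside 1019 of all 8676 tested genes, a share no higher than among genes at large. They were Psma4, Psma6, Psmd10 and Psmd3 (limma adjusted p of 0.0407, 0.0271, 0.0491 and 0.0279). Psme3ip1 passed too with these weights (limma adjusted p of 0.0289). These weights were 0.37 for control 2, 0.41 for control 3 and 2.41 for control 1. The all genes called changed, 149 as reported, numbered 1019 with array weights, 95 with the mean of all probe sets, 98 with the replicate block, 15 with the 18S covariate, 399 at an adjusted p under 0.1, and from 9 (without control 1) to 230 (without control 3) leaving out 1 array. The called genes named from the other lists (Foxp3 apart) kept their direction throughout. Their calls held in 6 (Cpa3) to 13 (Tnfrsf17) of 14 or 15 alternatives. With the 18S covariate the calls of 10 were lost at differences of -0.88 for Ccne1, -0.90 for Mcm3, -1.27 for Kif20a, -1.38 for Ttk, 1.62 for Derl3, 0.94 for Jchain, 1.21 for Txndc5, 2.39 for Mcpt8, 1.29 for Cpa3 and 0.60 for Gzma. The mean of all probe sets lost Mcm3 (-0.49), Txndc5 (0.85) and Cpa3, the trended and robust variance Mcpt8, and the further quantile normalization and the replicate block Cpa3. With the 18S covariate the immunoproteasome median was 0.19 and the beta median -0.071. Same-numbered arrays did not deviate together (correlations of -0.07, 0.12 and -0.12), so the numbers were not read as pairs, and with the replicate block 0 proteasome genes were called. Leaving out 1 array gave medians of -0.13 to 0.012 for the proteasome genes, -0.092 to 0.066 for the 20S core, -0.14 to -0.042 for the 19S cap, -0.007 to 0.16 for the immunoproteasome and -0.16 to -0.031 for chaperones and other regulators, in each case lowest without control 3 and highest without control 2.

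Some uncalled members near 0 changed sign, and the cause was not tested. Not every member was followed by name through the alternatives. Psmd5, Psmd6, Psmd12 and Psmd14, all near 0, were among those left out. The 18S covariate put Psmb10 at 0.083, Psmb8 at 0.095, Psmc6 at -0.012, Psmd11 at -0.017, Psmb1 at 0.070 and Psmf1 at 0.041. Array weights put Psma2 at 0.0099, Psma5 at 0.091 and Psmb1 at 0.044. The mean of all probe sets put Psmb4 at -0.11, Psma5 at 0.0039, Psmb1 at 0.23, Psmd9 at 0.12 and Psmf1 at 0.0064, and centring on medians put Psmb4 at -0.016. Leaving out 1 array gave differences of -0.13 to 0.041 for Psma2, -0.17 to 0.038 for Psma5, -0.11 to 0.12 for Psmb1, -0.20 to 0.061 for Psmb10, -0.069 to 0.092 for Psmb4, -0.14 to 0.038 for Psmb8, -0.077 to 0.015 for Psmc2, -0.020 to 0.084 for Psmc6, -0.011 to 0.12 for Psmd11, -0.21 to 0.012 for Psmd9 and -0.16 to 0.30 for Psmg4.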
